A study of Mus musculus with 12 samples.

Results

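The RNA levels of 10 genes for cell cycle transcription factors and their DNA-bound complex were examined in mouse bone marrow macrophages (BMMs) after neutralization of integrin α5 (ITGA5), the fibronectin-binding receptor chain encoded by Itga5. The genes were Foxm1, Mybl2, E2f1, E2f2, E2f3, E2f4, E2f7, E2f8, Lin9 and Lin54. They were found by symbol, and each symbol stood for 1 of the 54532 genes in the tables. All 10 had enough counts to enter every comparison, with 285 counts in the lowest library (Lin9) and 2066 in the highest (Foxm1).

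Wild-type C57BL/6J mice aged 2 to 3 months gave the marrow. CSF-1 at 12 and then 120 ng/ml, in medium with 15% fetal bovine serum, drove differentiation in all groups. The adherent cells were then passaged once and grown to confluence. The 12 libraries made 4 groups of 3. Cells sat on plain plates or on plates coated overnight with fibronectin (taken as 10 µg/ml from the labels). On each surface they received either control IgG or a neutralizing antibody to ITGA5, both at 10 µg/ml for 24 h. No gene was deleted in any group, and all 4 groups had been grown in CSF-1, itself a growth factor for macrophages. In bulk RNA of this kind, more cells in a cycle phase and more RNA per cell cannot be told apart.

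E2F proteins are the factors that the retinoblastoma family holds back until cyclin-dependent kinases release them, and E2f1, E2f2 and E2f3 encode the activators that switch on genes for DNA synthesis. E2f4 encodes a repressor that works with the retinoblastoma relatives p107 and p130, and E2f7 and E2f8 encode atypical repressors that bind DNA without a DP partner and close S phase. Lin9 and Lin54 encode core parts of MuvB, a complex that joins E2F4 and p130 in resting cells and B-MYB, the product of Mybl2, and then FOXM1 in cycling cells. LIN54 is the subunit that contacts the CHR, a short element in promoters of genes used in G2 and mitosis. FOXM1 is known as the factor that keeps those mitotic genes high.

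Promoter windows were read because several of these genes are known to be E2F or CHR targets themselves. RefSeq windows of 300 bases, 250 before and 50 after a transcript start on GRCm38.p6, were available for 7 of the 10 genes, as 10 windows. E2F-like letters were searched on both strands as TTNNCGN with each N a C or a G, which gives 8 spellings, and CHR-like letters as TTTGAA or TTCGAA, all chosen after the windows had been seen. E2F-like letters were in 6 of the 10 windows, from 6 genes, and in 17.8% of all 32851 windows. CHR-like letters were in 5 of the 10 windows, from 4 genes, and in 19.2% of all windows. The windows of the Mybl2, Lin54 and E2f8 genes, which rose in at least 1 antibody comparison, and the first of E2f3 and that of E2f7, which did not, are printed 5′ to 3′ on the strand of the gene. The second window of E2f3 (chr13:29984342-29984641) held no E2F-like or CHR-like letters and is not printed. Capitals mark E2F-like or CHR-like letters or their reverse complement, and no marked match overlapped another.
Mybl2, chr2:163054385-163054684, plus strand: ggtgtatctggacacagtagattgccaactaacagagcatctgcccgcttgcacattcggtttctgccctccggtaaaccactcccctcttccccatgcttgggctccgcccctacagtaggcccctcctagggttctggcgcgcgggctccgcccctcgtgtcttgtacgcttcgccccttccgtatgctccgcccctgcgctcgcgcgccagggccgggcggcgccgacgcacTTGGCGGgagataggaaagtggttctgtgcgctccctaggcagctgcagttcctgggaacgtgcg
Lin54 first window, chr5:100500590-100500889, minus strand: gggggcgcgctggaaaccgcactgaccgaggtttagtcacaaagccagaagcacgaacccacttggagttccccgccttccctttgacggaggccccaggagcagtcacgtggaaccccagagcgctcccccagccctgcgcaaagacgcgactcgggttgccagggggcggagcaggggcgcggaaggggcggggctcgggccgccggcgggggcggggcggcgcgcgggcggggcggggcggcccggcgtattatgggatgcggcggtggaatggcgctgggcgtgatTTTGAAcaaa
Lin54 second window, chr5:100498524-100498823, minus strand: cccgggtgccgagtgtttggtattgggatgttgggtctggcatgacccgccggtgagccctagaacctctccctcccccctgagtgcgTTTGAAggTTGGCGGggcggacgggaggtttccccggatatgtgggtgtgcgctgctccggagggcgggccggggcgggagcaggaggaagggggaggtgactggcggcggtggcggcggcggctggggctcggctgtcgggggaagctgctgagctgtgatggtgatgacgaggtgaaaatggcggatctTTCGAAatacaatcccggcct
E2f8, chr7:48881547-48881846, minus strand: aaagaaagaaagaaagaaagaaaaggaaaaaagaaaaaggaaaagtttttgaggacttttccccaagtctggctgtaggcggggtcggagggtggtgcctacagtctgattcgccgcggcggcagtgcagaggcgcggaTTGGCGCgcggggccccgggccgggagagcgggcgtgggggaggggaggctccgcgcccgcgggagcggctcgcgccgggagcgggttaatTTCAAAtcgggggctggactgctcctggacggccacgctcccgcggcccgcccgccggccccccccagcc
E2f3 first window, chr13:29986014-29986313, minus strand: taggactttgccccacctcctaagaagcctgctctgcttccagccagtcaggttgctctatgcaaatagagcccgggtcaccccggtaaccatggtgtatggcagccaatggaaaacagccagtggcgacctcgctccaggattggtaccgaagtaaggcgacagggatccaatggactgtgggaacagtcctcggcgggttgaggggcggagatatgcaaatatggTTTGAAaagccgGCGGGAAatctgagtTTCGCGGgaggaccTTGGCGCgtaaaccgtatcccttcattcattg
E2f7, chr10:110745189-110745488, plus strand: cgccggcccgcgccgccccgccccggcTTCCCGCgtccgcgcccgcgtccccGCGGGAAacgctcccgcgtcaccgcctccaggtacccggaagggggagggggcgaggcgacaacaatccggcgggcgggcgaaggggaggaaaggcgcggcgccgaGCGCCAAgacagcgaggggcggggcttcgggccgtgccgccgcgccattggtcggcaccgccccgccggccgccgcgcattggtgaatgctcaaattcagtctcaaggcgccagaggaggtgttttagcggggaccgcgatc

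Counted from the start site at 0, Mybl2 had TTGGCGG at -15, and E2f8 had TTGGCGC at -111 and TTTGAA on the opposite strand at -20. In the second window of Lin54, TTTGAA at -162 was followed by TTGGCGG at -154, and CHR-like letters also lay at 29 there and at 40 in the first window. The first window of E2f3 held TTTGAA at -23 and 3 E2F-like matches at -11, 4 and 18, and E2f7 held E2F-like matches only, at -223, -198 and -92. The windows of E2f2, not printed, held E2F-like letters at 25 and 40 in the first and TTTGAA at -31 in the second. E2F-like letters thus stood in windows of genes that rose in at least 1 antibody comparison (Mybl2, Lin54, E2f8), of a gene that fell on plain plates (E2f3) and of genes not called (E2f2, E2f7). The window of E2f1, also not called and not printed, held no E2F-like or CHR-like letters. That window and the second windows of E2f2, E2f3 and Lin54 lay inside the annotated genes. A match is a description of letters and not a measured site.

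Library totals ran from 12954342 to 22075432 counts on genes. Replicate 2 of anti-ITGA5 without fibronectin had the lowest total and the most genes with a count (21123, against 19542 to 20426 in the other 11 libraries), and replicates 2 and 3 of that group had the highest share of counts outside protein-coding genes (1.909% and 1.956%, against 1.078% to 1.308% elsewhere). The 3 pairs of libraries of that group differed most, with a chi-square per gene of 10.39 to 23 against 2.646 to 7.451 for pairs of the other groups. On plain plates 5 of the 10 genes were called with all libraries, without replicate 2 and without replicate 3. Macrophage markers were high (Csf1r at 268.8 to 332.8 FPKM, counts per gene length and library total, and Adgre1 at 154.8 to 184.1), whereas Ly6g of neutrophils, Cd3d of T cells and Ms4a2 of mast cells were at 0 in all libraries. The summed level of the 8 macrophage markers was 8977 to 9822 FPKM in IgG and 6129 to 7517 in anti-ITGA5 on plain plates, and 9558 to 9759 against 7336 to 7506 on fibronectin. Of these 8, 4 fell on both coatings (Cd68, Itgam, Lyz2 and Mertk) and 1 rose (Cd14), where 9.79% and 13.2% of all genes tested were called lower on plain plates and on fibronectin. Most of the sum was Lyz2 (4559 to 7988 FPKM), and the other 7 markers summed to 1828 to 1874 FPKM in IgG and 1570 to 1736 in anti-ITGA5 on plain plates, and to 1850 to 1884 against 1734 to 1755 on fibronectin. Csf1r and Adgre1 were not called on either coating. The part of this shift in the results below was not tested. Markers of other lineages stayed near 0 in sum: at most 5.04 FPKM for 10 neutrophil genes, 0.48 for 8 stromal genes, 1.13 for 6 progenitor genes and 0.48 for 8 lymphocyte genes. On fibronectin Mpo of the neutrophil list and Cd34 of the progenitor list were called lower, beside the same 13.2% of all genes. Their highest libraries were at 0.333 and 1.05 FPKM. Itga5 RNA was present in all libraries (44.5 to 53.1 FPKM), but the antibody acts on the protein, so this level does not check the neutralization.

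By level, which FPKM allows to be compared between genes, E2f4 (26.1 FPKM over the 12 libraries) and E2f1 (23.4) led, E2f2 (13.4) and Foxm1 (12.2) followed, then came Mybl2 (8.99), E2f8 (8.76), Lin54 (8.71) and E2f3 (7.34), with E2f7 (3.42) and Lin9 (2.96) lowest. The ranges over the libraries overlapped for E2f1 and E2f4, for E2f7 and Lin9, and among Mybl2, E2f8, Lin54 and E2f3. Foxm1, at 5.80 to 19.3 FPKM, overlapped E2f2 and each of Mybl2, E2f8, Lin54 and E2f3. The order of Mybl2, E2f8 and Lin54 was not the same in each group, since Mybl2 (7.22) was below E2f8 (7.98) and Lin54 (7.56) by group mean in IgG without fibronectin, and Lin54 was above E2f8 in both anti-ITGA5 groups (9.95 against 9.36 and 10.2 against 9.97). The place of Foxm1 differed with the antibody. It stood below E2f2 in each of the 6 IgG libraries and above it in each of the 6 anti-ITGA5 libraries. By group mean Foxm1 (7.78) was also below E2f3 (8.14) and E2f8 (7.98) in IgG without fibronectin. In IgG with fibronectin Foxm1 (7.35) was below Mybl2 (7.96) and E2f8 (7.74). The place of E2f3 differed too, since in IgG without fibronectin its 3 libraries (mean 8.14) were above those of Lin54 (7.56) and Mybl2 (7.22), and in both anti-ITGA5 groups they were below them.

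**Figure D1:**
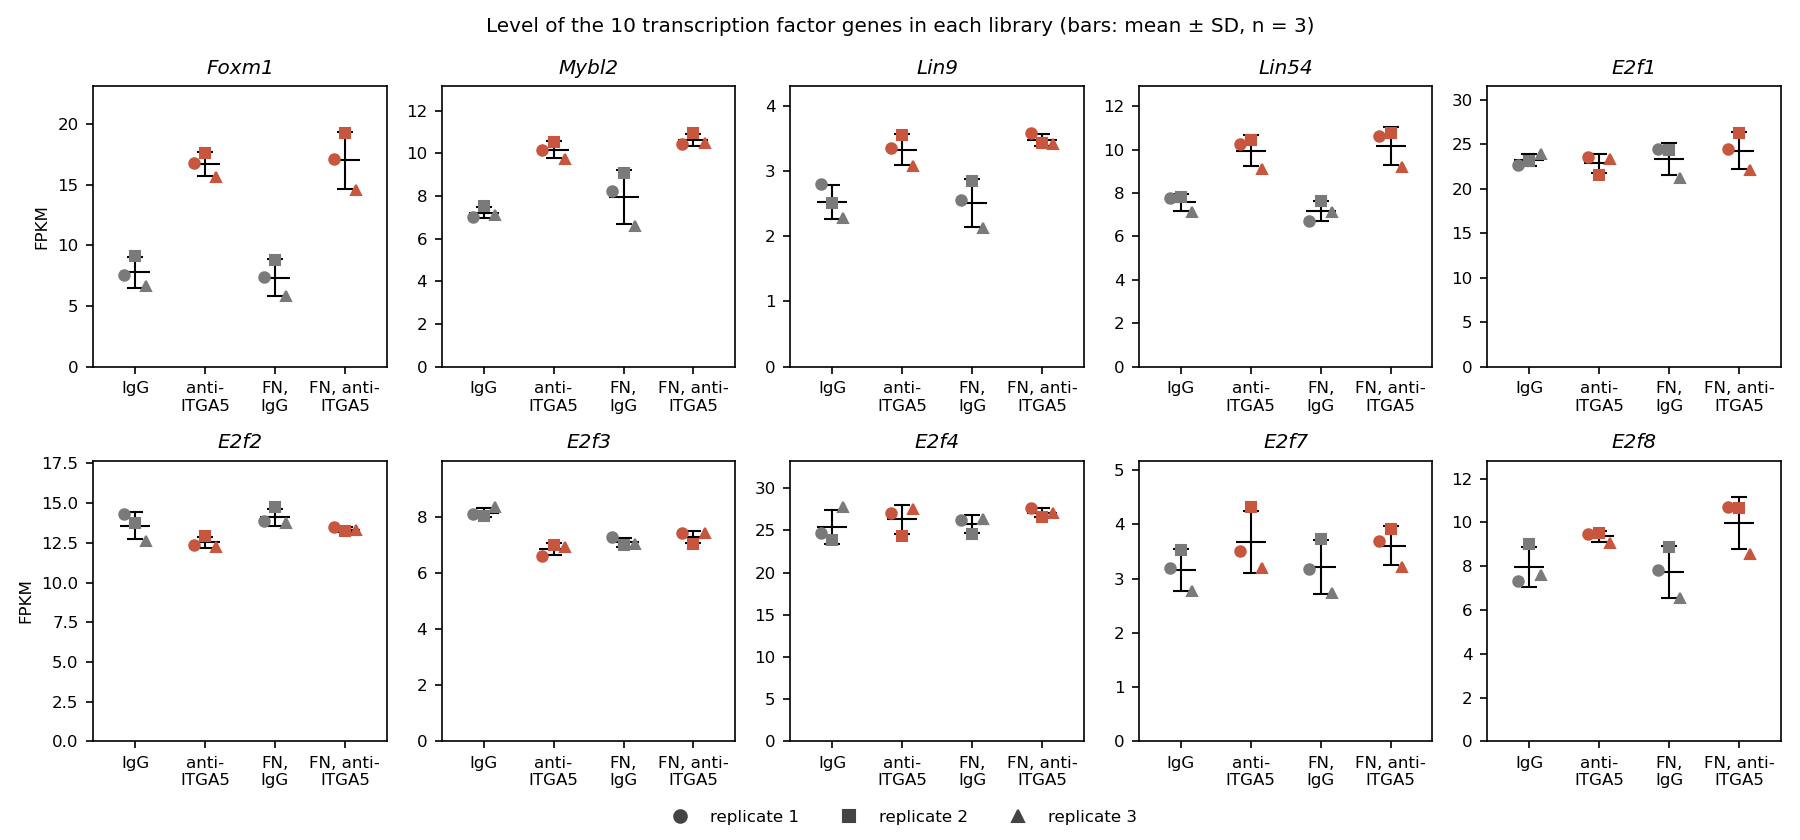
FPKM of the 10 genes in each library, 1 panel a gene, with the 4 groups on the horizontal axis (FN, fibronectin coating), 1 symbol a library by replicate number, and mean ± SD (n = 3) in black. Foxm1, Mybl2, Lin9 and Lin54 sit higher in every anti-ITGA5 library than in any IgG library of the same coating, while E2f1 overlaps throughout.

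On plain plates, ITGA5 neutralization was accompanied by higher RNA of Foxm1, Mybl2, Lin54 and Lin9 and by lower RNA of E2f3. Foxm1 changed the most, by 2.15 times, and the other 3 rose by 1.32 to 1.41 times. The edgeR quasi-likelihood test called 4 of the 10 genes higher and 1 lower at an adjusted p of at most 0.05, and left E2f1, E2f2, E2f4, E2f7 and E2f8 uncalled. At an unadjusted p under 0.05 were 6 of the 10, and 33.5% of all genes. Of all 12924 genes tested, 20.8% were called and 11.0% were called higher. The median log2 fold change was 0.22 for the 10 genes and 0.009 for all genes. With scaling by total counts 1838 of 2778 calls were higher, against 1419 of 2684 with TMM factors. The 2684 calls became 1473 without replicate 1 of IgG, 1567 without replicate 3 of IgG and 1755 without replicate 1 of anti-ITGA5. Without replicate 2 of anti-ITGA5 they rose to 3834.

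On fibronectin, Foxm1, Lin54, Lin9 and Mybl2 rose again, E2f8 rose as well, and E2f3 was not called. Foxm1 was 2.31 times and Lin54 1.42 times as high as with IgG. The same test called 5 of the 10 genes higher and 0 lower (edgeR, with 5 of the 10 at an unadjusted p under 0.05, all of them higher, and 38.7% of all genes). By limma on log2(FPKM + 1) without a filter 2 were called, and by DESeq2 5. Of 12916 genes tested, 27.6% were called and 14.4% were called higher, and the medians were 0.26 for the 10 genes and -0.004 for all. With total counts 2407 of 3671 calls were higher, against 1866 of 3565. The 2 antibody comparisons share no library, but the labels do not say whether they share animals or cultures.

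In FPKM, all 3 anti-ITGA5 libraries lay above all 3 IgG libraries for 5 of the 10 genes on each coating, and below them for 1. The groups were apart on plain plates for 40.3% of the 11686 genes that had 10 counts or more in each of the 12 libraries and for 44.4% on fibronectin. An exact permutation test of 3 against 3 libraries cannot go below p = 0.10, which it gives for each of these.

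**Figure D2:**
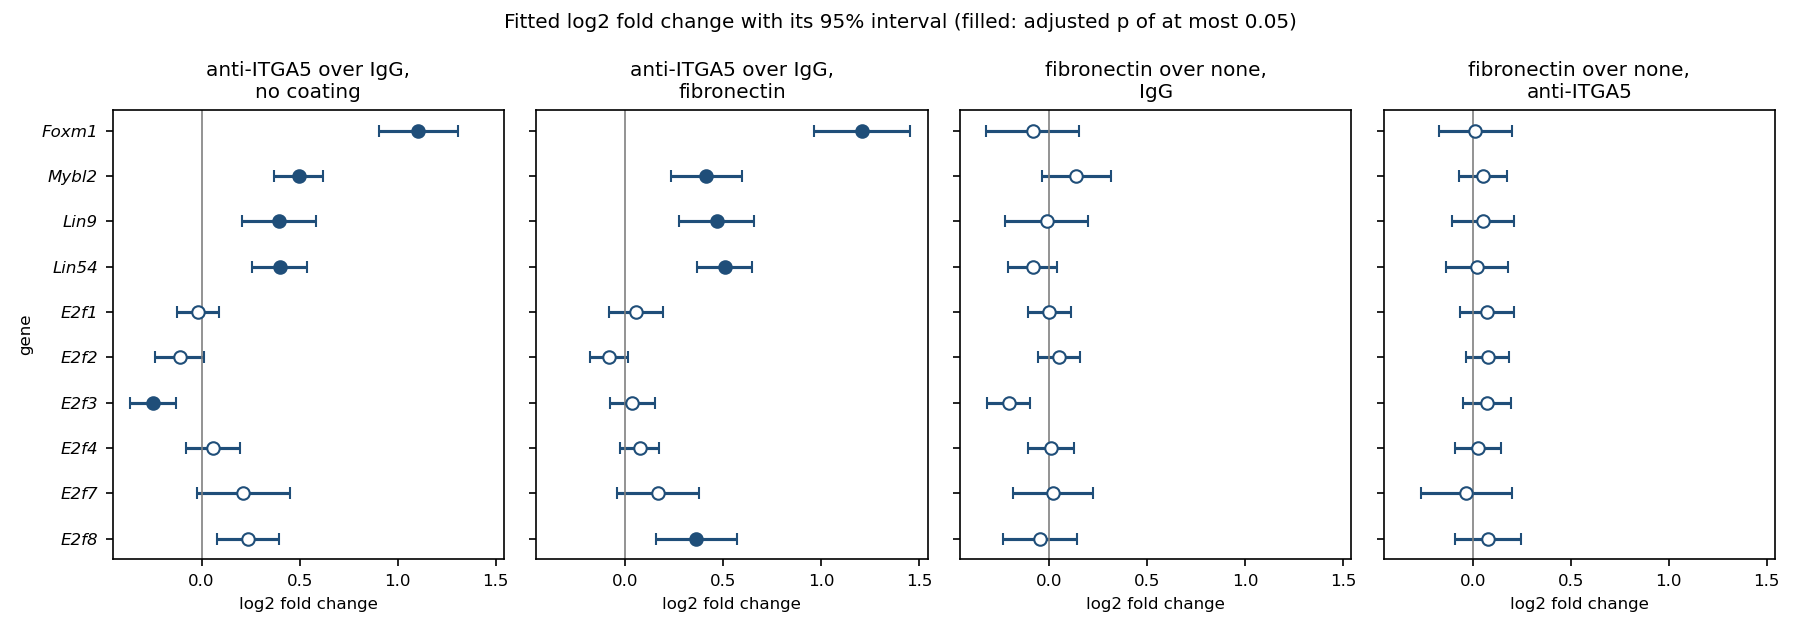
Log2 fold change (horizontal axis) of the 10 genes (vertical axis) in 4 comparisons, as edgeR estimate with its 95% interval (by a normal quantile) from 6 libraries each. Filled points passed an adjusted p of 0.05, and these occur in the 2 antibody panels and in neither fibronectin panel.

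Foxm1, the gene for the forkhead factor of G2 and mitosis, was at 7.57, 9.13 and 6.63 FPKM in IgG and at 16.8, 17.7 and 15.7 in anti-ITGA5 without fibronectin. On fibronectin its values were 7.43, 8.81 and 5.80 in IgG and 17.1, 19.3 and 14.6 in anti-ITGA5. The lowest anti-ITGA5 library (14.6) was above the highest IgG library (9.13) whichever coating it came from. The log2 fold change was 1.11 (SE 0.10, edgeR adjusted p = 4.96e-05) on plain plates and 1.21 (SE 0.12, adjusted p = 2.30e-05) on fibronectin. Foxm1 stood at rank 124 and 213 by p among all genes tested, so it was well inside the changed genes without leading them. Within each of the 4 groups replicate 2 was highest and replicate 3 lowest, a pattern that E2f7 shared in all 4 groups.

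Mybl2 encodes B-MYB, the factor that joins MuvB in S phase. It was at 7.02, 7.53 and 7.11 FPKM in IgG and at 10.2, 10.6 and 9.76 in anti-ITGA5 on plain plates. On fibronectin the values were 8.21, 9.06 and 6.60 in IgG and 10.4, 11.0 and 10.5 in anti-ITGA5. The groups did not overlap on either coating, but IgG with fibronectin spread over a wider range than the other groups. Fitted changes on the log2 scale were 0.50 (SE 0.064, adjusted p = 0.000402) on plain plates and 0.41 (SE 0.092, adjusted p = 0.00529) on fibronectin.

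Lin54, the DNA-binding subunit of MuvB, was at 7.79, 7.79 and 7.11 FPKM in IgG and at 10.3, 10.4 and 9.12 in anti-ITGA5 on plain plates. With fibronectin it was at 6.73, 7.63 and 7.11 in IgG and at 10.6, 10.8 and 9.18 in anti-ITGA5. Every anti-ITGA5 library was above every IgG library. Its log2 fold change was 0.40 (SE 0.072, adjusted p = 0.00319) and 0.51 (SE 0.072, adjusted p = 0.000241).

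Lin9, the scaffold subunit of MuvB and the lowest of the 10 genes, was at 2.80, 2.51 and 2.28 FPKM in IgG and at 3.34, 3.55 and 3.08 in anti-ITGA5 on plain plates. On fibronectin it was at 2.56, 2.85 and 2.12 in IgG and at 3.58, 3.43 and 3.42 in anti-ITGA5. The groups were again apart on both coatings. Its log2 fold change was 0.40 (SE 0.096, adjusted p = 0.0153) and 0.47 (SE 0.097, adjusted p = 0.00355). The call on plain plates was lost without replicate 2 (adjusted p = 0.0564) or replicate 3 (0.0695) of IgG without fibronectin. By limma on log2(FPKM + 1) without a filter, Lin9 was not called on either coating (adjusted p = 0.148 and 0.0801), nor was Mybl2 on fibronectin (0.0938). Lin52 and Lin37, the other small MuvB subunits, were not called, with log2 fold changes of 0.019 and 0.0093 on plain plates and 0.27 and -0.094 on fibronectin.

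The activator E2f1 was at 22.7, 23.1 and 24.0 FPKM in IgG and at 23.6, 21.6 and 23.3 in anti-ITGA5 on plain plates. The fibronectin libraries were at 24.4, 24.4 and 21.2 in IgG and at 24.5, 26.3 and 22.1 in anti-ITGA5. The groups overlapped on both coatings. E2f1 had a log2 fold change of -0.019 (95% interval from -0.13 to 0.089, adjusted p = 0.852) and 0.056 (from -0.082 to 0.19, adjusted p = 0.598). Both intervals end far below the log2 fold changes of Foxm1.

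E2f2, a second activator, was at 14.3, 13.8 and 12.6 FPKM in IgG and at 12.4, 12.9 and 12.2 in anti-ITGA5 on plain plates, and its log2 fold change was -0.11 (from -0.24 to 0.012, adjusted p = 0.245). On fibronectin it was at 13.9, 14.7 and 13.8 in IgG and at 13.5, 13.2 and 13.3 in anti-ITGA5, with a log2 fold change of -0.084 (from -0.18 to 0.012, adjusted p = 0.229). The groups overlapped on plain plates and were apart by a narrow margin on fibronectin.

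E2f3, the third activator, was at 8.09, 8.01 and 8.32 FPKM in IgG without fibronectin and at 6.59, 6.98 and 6.93 in anti-ITGA5 without fibronectin. With fibronectin the values were 7.28, 6.98 and 7.02 in IgG and 7.41, 7.02 and 7.40 in anti-ITGA5. The 3 libraries of IgG without fibronectin were above all 9 others, and they enter both the antibody comparison on plain plates and the fibronectin comparison in IgG. E2f3 had log2 fold changes of -0.25 (SE 0.059, adjusted p = 0.0140) on plain plates and 0.035 (SE 0.059, adjusted p = 0.701) on fibronectin. The call on plain plates was lost without replicate 1 (adjusted p = 0.0558) or 3 (0.0589) of IgG without fibronectin, or without replicate 1 of anti-ITGA5 without fibronectin (0.0719). Summed over E2f1, E2f2 and E2f3, activator RNA was at 44.8 to 45.1 FPKM in IgG and 41.5 to 42.6 in anti-ITGA5 on plain plates. On fibronectin the sums overlapped, at 42.0 to 46.1 and 42.8 to 46.5.

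E2f4, the repressor E2F of resting cells and the most abundant of the 10, was at 24.7, 23.8 and 27.7 FPKM in IgG and at 27.1, 24.3 and 27.5 in anti-ITGA5 on plain plates. On fibronectin it was at 26.3, 24.5 and 26.4 in IgG and at 27.6, 26.6 and 27.1 in anti-ITGA5. The groups overlapped on plain plates and were just apart on fibronectin. The log2 fold change was 0.056 (from -0.082 to 0.195, adjusted p = 0.628) and 0.075 (from -0.025 to 0.17, adjusted p = 0.305).

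E2f8, an atypical repressor, was at 7.31, 9.02 and 7.61 FPKM in IgG and at 9.48, 9.54 and 9.07 in anti-ITGA5 on plain plates. On fibronectin it was at 7.82, 8.89 and 6.53 in IgG and at 10.7, 10.7 and 8.58 in anti-ITGA5. The groups were just apart on plain plates and overlapped on fibronectin, where replicate 3 of anti-ITGA5 fell below replicate 2 of IgG. The log2 fold change was 0.23 (SE 0.080, adjusted p = 0.0626) and 0.36 (SE 0.11, adjusted p = 0.0226). The 2 coatings therefore fell on either side of the threshold, and the test of their difference gave an adjusted p of 0.99972. The call on fibronectin was lost without replicate 1 (adjusted p = 0.0711) or 3 (0.0900) of IgG or replicate 1 (0.102) or 2 (0.0821) of anti-ITGA5, and in 3 limma fits on FPKM (0.0896 to 0.215). On plain plates it was gained with total counts (0.0441), without replicate 2 of IgG (0.0131) or with replicate number as a block (0.0265).

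E2f7, the other atypical repressor, was at 3.19, 3.53 and 2.77 FPKM in IgG and at 3.52, 4.31 and 3.20 in anti-ITGA5 on plain plates. Fibronectin-coated plates gave 3.19, 3.73 and 2.73 in IgG and 3.70, 3.92 and 3.21 in anti-ITGA5. The groups overlapped on both coatings. The log2 fold change was 0.21 (from -0.024 to 0.45, adjusted p = 0.248) and 0.16 (from -0.043 to 0.37, adjusted p = 0.278). Each interval includes 0 as well as a rise of the size fitted for E2f8.

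Fibronectin itself was compared with no coating within each antibody. In IgG, edgeR called 0 of the 10 genes, with 1 at an unadjusted p under 0.05 (9.79% of all genes), and DESeq2 and each of 3 limma fits also called 0. Of 12925 genes tested, 0.449% were called. These 58 calls became 9, 31 and 87 without replicate 1, 2 or 3 of IgG without fibronectin. They became 13, 101 and 29 without replicate 1, 2 or 3 of IgG with fibronectin. E2f3 was the gene with p under 0.05, with a log2 fold change of -0.20 (SE 0.056, adjusted p = 0.144). In anti-ITGA5, edgeR called 0 of the 10, with 0 at an unadjusted p under 0.05, and DESeq2 and limma called 0. Of 12863 genes tested, 0% were called by edgeR, 3.58% had an unadjusted p under 0.05 and DESeq2 called 5, while edgeR on every gene with at least 1 count called 327. The log2 fold changes of the 10 genes ranged from -0.20 (E2f3) to 0.14 (Mybl2) in IgG and from -0.033 (E2f7) to 0.078 (E2f8) in anti-ITGA5.

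Whether the antibody effect differed between coatings was tested as an interaction over all 12 libraries. EdgeR called 0 of the 10 genes, with 1 at an unadjusted p under 0.05 (2.87% of all genes), and DESeq2 and limma called 0. Of 13455 genes tested, 0.0223% were called. E2f3 had the largest difference of effects, 0.28 on the log2 scale (SE 0.076, from 0.13 to 0.43), and it ranked 10 by p among all genes, with an adjusted p of 0.99972. For Foxm1 the difference was 0.098 (from -0.27 to 0.47), and for Mybl2 it was -0.086 (from -0.33 to 0.16).

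A ratio of 2 genes within a library does not depend on how libraries were scaled. Foxm1 stood at 0.334, 0.396 and 0.277 of E2f1 by FPKM in IgG without fibronectin and at 0.711, 0.818 and 0.671 in anti-ITGA5 without fibronectin. On fibronectin the ratios were 0.304, 0.362 and 0.273 in IgG and 0.700, 0.734 and 0.662 in anti-ITGA5. The lowest ratio of any anti-ITGA5 library exceeded the highest of any IgG library by a wide margin. Mybl2 stood at 0.297 to 0.326 of E2f1 in IgG and 0.418 to 0.489 in anti-ITGA5 on plain plates, and at 0.311 to 0.372 against 0.417 to 0.475 on fibronectin. The ratio of E2f8 to E2f1 overlapped on plain plates (0.318 to 0.391 against 0.389 to 0.442) and was apart on fibronectin (0.308 to 0.365 against 0.389 to 0.436).

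**Figure D3:**
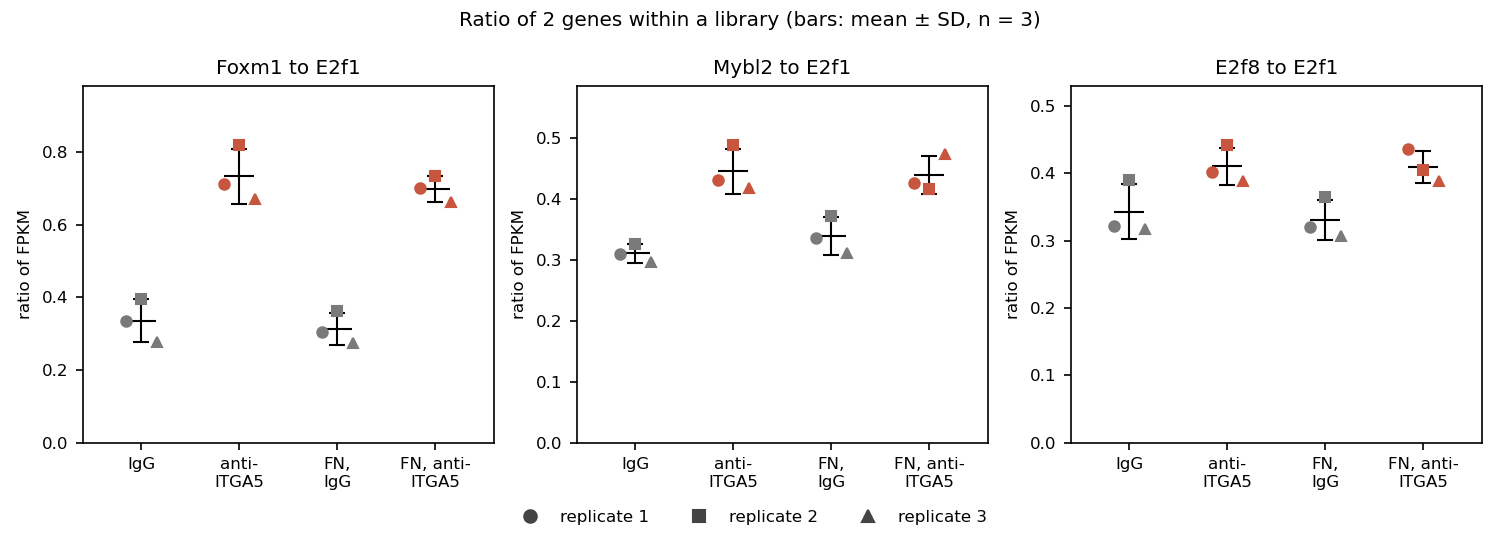
Ratio of the FPKM of Foxm1, Mybl2 and E2f8 to that of E2f1 in the same library (vertical axis) in the 4 groups (FN, fibronectin coating), with 1 symbol a library and mean ± SD (n = 3) in black. The ratio of Foxm1 to E2f1 is at 0.273 to 0.396 in the 6 IgG libraries and at 0.662 to 0.818 in the 6 anti-ITGA5 libraries.

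Partner genes encode proteins that bind these factors. Of 11 partner genes of E2F, the retinoblastoma family and MuvB, 2 rose and 1 fell on plain plates, with a median log2 fold change of 0.091, and 6 rose and 1 fell on fibronectin, with a median of 0.15. Among all genes 20.8% and 27.6% were called, and 11.0% and 14.4% were called higher, so the count on plain plates was close to the background. Tfdp1, the main DP partner that E2F1 to E2F6 need for binding DNA, rose on both coatings, from 34.1 to 43.6 FPKM on plain plates (log2 fold change 0.36, edgeR adjusted p = 0.00156) and from 32.5 to 44.3 on fibronectin (0.45, adjusted p = 6.55e-05). Rbl1, which encodes the retinoblastoma relative p107 and is an E2F target itself, rose by 0.43 (adjusted p = 0.000939) and 0.48 (adjusted p = 0.000144). Rbl2, which encodes the p130 of resting cells, fell by 0.27 on plain plates (adjusted p = 0.0122) and was at -0.14 on fibronectin (adjusted p = 0.0986). Rb1, Rbbp4, E2f5 and Mybl1 passed the test on fibronectin (0.14 to 0.49) and not on plain plates (0.091 to 0.30), and Tfdp2 fell by 0.23 on fibronectin. E2f6 was at -0.0079 and -0.10 and was not called. The interaction test gave an adjusted p of 0.99972 or more for each of the 11. The count of higher calls on fibronectin was 3 without replicate 1 of anti-ITGA5 with fibronectin.

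Upstream of the retinoblastoma proteins, 8 of 18 listed regulators rose on plain plates, with a median of 0.22, and 7 rose and 2 fell of the 17 tested on fibronectin, with a median of 0.13, against 11.0% and 14.4% of all genes called higher. The D cyclins start release of E2F, and 1 of the 3 was called. Ccnd1, by far the most abundant at 206.1 to 210.2 FPKM as group means, was at -0.010 and 0.024 on the log2 scale and was not called, while Ccnd2, at 2.41 to 3.65, rose by 0.25 (adjusted p = 0.0356) and 0.44 (adjusted p = 0.0026). Ccnd2 was also called lower with fibronectin than without it in IgG (log2 fold change -0.36, adjusted p = 0.0429), and the IgG libraries with fibronectin are the baseline of the 0.44. Ccnd3, at 7.25 to 8.58, was at -0.15 and -0.16 and was not called (adjusted p = 0.147 and 0.0614). Cdk4, which encodes a kinase that D cyclins activate, rose by 0.20 (adjusted p = 0.0251) and 0.15 (adjusted p = 0.0335). Cdkn2c and Cdkn2d, genes for INK4 inhibitors of CDK4 and CDK6, rose by 1.25 and 1.12 on plain plates and by 1.23 and 1.06 on fibronectin. Their group means went from 15.6 to 37.0 FPKM and from 14.3 to 30.9 on plain plates. Members that rose thus included inhibitors of the cycle as well as Cks1b (0.80 and 0.90), which helps cyclin-dependent kinases.

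Fbxo5 and Fzr1, genes for an inhibitor and an activator of the anaphase-promoting complex, rose by 0.73 and 0.59 on plain plates and by 0.72 and 0.51 on fibronectin. Cdkn1a, which encodes the inhibitor p21, fell by 0.17 on fibronectin (adjusted p = 0.0057) and was at -0.20 on plain plates (adjusted p = 0.068). Cdkn1c fell by 0.67 on fibronectin from a low level (1.15 to 0.72 FPKM). Cdkn2a was called higher on plain plates from group means of 0.16 and 0.63 FPKM, too low for its size to be firm. Cdk2, Cdk6, Cdkn1b, Cdkn2b, Myc and Skp2 were not called on either coating. Of the regulators on plain plates, 5 were called higher without replicate 2 or replicate 3 of IgG or without replicate 1 of anti-ITGA5.

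The known targets of the 2 classes of factor were counted next, from lists that were chosen with earlier results of these libraries known. All 25 listed FOXM1 and B-MYB targets of G2 and mitosis were called higher on each coating (edgeR, against 11.0% and 14.4% of all genes), with a median log2 fold change of 1.57 on plain plates and 1.5 on fibronectin. The smallest change was that of Cdc25b (0.75 and 0.82), named after its values were seen. The largest were those of Cdc25c, the phosphatase gene that opens mitosis, at 2.28 and 2.48, Ube2c, a ubiquitin-conjugating enzyme of the anaphase-promoting complex, at 2.15 and 2.44, Plk1, a mitotic kinase, at 2.18 and 2.27, and Cdc20, an activator of the same complex, at 2.08 and 2.24. Plk1 went from a mean of 7.04 to 31.8 FPKM on plain plates and from 7.31 to 35.5 on fibronectin. The log2 fold change was larger than that of Foxm1 for 22 of the 25 on plain plates and 21 on fibronectin.

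Of 30 listed E2F targets of the G1/S step and of DNA synthesis, 14 rose and 1 fell on plain plates, with a median of 0.17, and 10 rose on fibronectin, with a median of 0.15, beside the same 11.0% and 14.4% of all genes. The fall was that of Ccne1, the cyclin E1 gene, by 0.29 on plain plates (adjusted p = 0.0199), named after its value was seen. The 10 called on fibronectin were all called on plain plates too. Among those called on both coatings were Tyms (0.75 and 0.69) and Tk1 (0.67 and 0.62), which make thymidine nucleotides, and Ezh2, a histone methyltransferase gene (0.66 and 0.55). The genes Mcm2 to Mcm7 of the helicase that licenses origins, singled out after their values were seen, were at -0.035 to 0.15 on both coatings and were not called (adjusted p = 0.0741 or more). The number of E2F targets called higher on plain plates was 8 without replicate 1 or 3 of IgG or without replicate 1 of anti-ITGA5, and on fibronectin it was 16 without replicate 3 of anti-ITGA5.

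**Figure D4:**
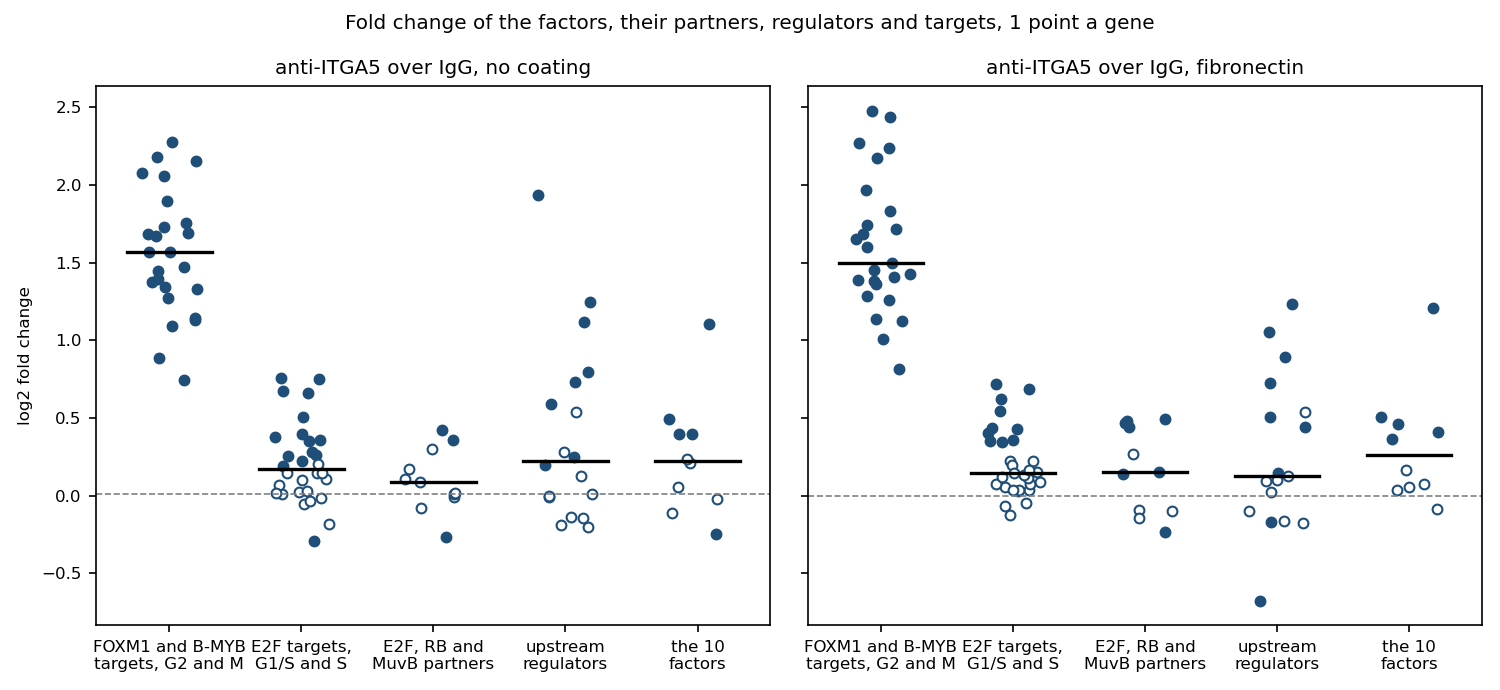
Log2 fold change of anti-ITGA5 over IgG (vertical axis) for each gene of 4 lists and for the 10 factors (horizontal axis), without coating (left) and with fibronectin (right), with black bars at the list medians, a dashed line at the median of all genes and filled points at an adjusted p of at most 0.05. The 25 FOXM1 and B-MYB targets lie between 0.75 and 2.48, and the 30 E2F targets have medians of 0.17 without coating and 0.15 with fibronectin.

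The genes most like Foxm1 were sought by the root mean square difference of centred log2 CPM over the 12 libraries, among 13454 other genes. The nearest were Cip2a (0.047), Nuf2 (0.076), Iqgap3 (0.081), Kif18a (0.081) and Spc25 (0.083). Cip2a, an inhibitor of the phosphatase PP2A, had group means of 6.66 and 13.7 FPKM on plain plates and 6.08 and 14.5 on fibronectin. Nuf2 and Spc25 encode parts of the kinetochore complex NDC80, and Kif18a a mitotic kinesin. For E2f1 the nearest were Mcm3 (0.036), Mthfd1 (0.043), Sdhd (0.049), Srd5a3 (0.049) and Akt2 (0.051), genes of different known functions that shared a near-flat level. Among the 10 factors themselves, Mybl2 and Lin9 were closest (0.093) and E2f7 and E2f8 were 0.12 apart, whereas the nearest to Foxm1 was Mybl2 at 0.38.

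Genomic positions on GRCm38 were chr6:128362967-128376146 for Foxm1 (ENSMUSG00000001517), chr2:163054687-163084688 for Mybl2, chr5:100441918-100500639 for Lin54 and chr1:180641150-180690694 for Lin9. The E2F genes lay at chr2:154559407-154569892 (E2f1), chr4:136172394-136196057 (E2f2), chr13:29906575-29986063 (E2f3), chr8:105297663-105305370 (E2f4), chr10:110745439-110787384 (E2f7) and chr7:48866429-48881596 (E2f8). Values were counted over whole genes and carry no exon detail. Annotated genes on the opposite strand overlap E2f3 (Gm11365, 0 to 14 counts), E2f7 (1700020G17Rik, 0 to 3) and E2f8 (Gm2788, 4 to 17), and the sources used here do not state whether counting used strand. Those counts are small beside the 437 or more of the 3 factors.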

How the data were processed

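RNA was measured by poly(A) RNA-seq in 12 BMM libraries, 3 per group. Per the labels' processing notes the authors used TopHat2 2.0.9, Cufflinks 2.1.1 and HTSeq 0.6.1 with builds mm10 and GRCm38.p6. They deposited a table of raw read counts per gene and a table of FPKM per gene (fragments scaled by gene length and library total), which were used as deposited. The strand setting is not given in the sources used here.

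Counts were tested with the quasi-likelihood test of edgeR 4.0.16 in R 4.3.3, as designed: filterByExpr (minimum count 10, minimum total 15), TMM factors, the 6 libraries compared (12 for the interaction), Benjamini-Hochberg adjustment over all genes tested and calls at 0.05. The study's own tool, DESeq2, was an alternative (1.42.0), as was limma 3.58.1 on log2(FPKM + a pseudocount of 1 or 0.1). Fibronectin comparisons within 1 antibody share libraries with the antibody comparisons. Standard errors are log2 fold changes divided by the square root of F. FPKM are given per library, with 2-sided exact permutation tests. Scripts were tested on simulated data. The labels name no cultures or animals; the study's legend for RNA-seq of these cells calls the experiments of a group biologically independent, and p-values measure the spread between these libraries. Same-numbered libraries were not taken as pairs.

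The 10 genes and all gene lists were chosen with earlier results of these data known. Genes named were the 10, all partners and regulators, the 4 targets per list with the largest mean change among those called on both coatings, the 5 nearest to Foxm1 and to E2f1, and Itga5; 1 of the E2F targets so chosen is not reported here by name or value. Cell type markers were named from lists of their own, and Cdc25b, Ccne1, Mcm2 to Mcm7 and Mki67 after their values were seen. Promoter windows came from RefSeq (GRCm38.p6), and motif letters and extra list counts were added after the tables were seen.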

Additional observations from a re-analysis of the deposited data

How the results depend on the processing

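Of the 10 genes, 5 were called higher or lower on plain plates in the main test, 3 at an adjusted p of at most 0.01 and 1 with a log2 fold change of at least 1 as well. On fibronectin 5 became 2 by limma on log2(FPKM + 1) without a filter and 1 with that fold change. Foxm1 and Lin54 were called in all 16 alternatives of test, scaling, filter or libraries on both coatings, at log2 fold changes of 1.0 to 1.24 and 1.06 to 1.36 for Foxm1. Mybl2 was called in 16 on plain plates and 15 on fibronectin, Lin9 in 13 and 15, E2f3 in 13 and 0, E2f8 in 3 and 9. The 25 FOXM1 and B-MYB targets were called higher in all 16 on both coatings. For other lists, limma without a filter gave 5 and 4 E2F targets and, on fibronectin, 3 partners, and limma with the filter gave 5 regulators in place of 8 on plain plates with either pseudocount. The cause was not tested.

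Same-numbered libraries were compared as a hint of pairing: deviations from group means correlated at 0.032 to 0.149 in the antibody comparisons, below 0.1 for some, and 10 of 12 pairs matched best by their own number. With a replicate block, 7 of the 10 genes were called on plain plates (E2f7 at an adjusted p of 0.0456 and E2f8 at 0.0265 were gained), 5 on fibronectin and 1 for fibronectin in IgG, E2f3. The block gave 17 E2F targets called higher on fibronectin.

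Signs changed only among uncalled values near 0. With total counts in place of TMM factors, log2 fold changes became 0.0213 for E2f1 (antibody, plain plates), -0.0168 for E2f1 and -0.0082 for E2f4 (fibronectin in IgG) and -0.00298 for Foxm1 (fibronectin in anti-ITGA5). Leaving out 1 library at a time, 3 to 5 of the 10 genes were called on plain plates, 3 without replicate 3 of IgG, where E2f3 and Lin9 were lost. In the same way E2f1 ranged from -0.0371 to 0.0122 on plain plates and from -0.013 to 0.119 on fibronectin. For fibronectin in IgG, ranges were -0.236 to 0.0599 for Foxm1, -0.0286 to 0.0647 for E2f1, -0.0331 to 0.0803 for E2f4, -0.0997 to 0.125 for E2f7, -0.155 to 0.0627 for E2f8 and -0.113 to 0.0933 for Lin9. For fibronectin in anti-ITGA5, they were -0.0846 to 0.109 for Foxm1, -0.0159 to 0.0568 for E2f4, -0.131 to 0.103 for E2f7, -0.00547 to 0.111 for Lin9 and -0.043 to 0.0874 for Lin54. For the interaction, they were -0.044 to 0.254 for Foxm1, -0.202 to 0.0216 for Mybl2, -0.0147 to 0.0746 for E2f2, -0.0522 to 0.0591 for E2f4, -0.155 to 0.0837 for E2f7 and -0.0385 to 0.172 for Lin9. Cdkn2a, with group means under 0.7 FPKM on plain plates, had too few counts to be tested on fibronectin; the effect of depth was not tested otherwise. Over all genes, limma without a filter called 1220 on plain plates and 1871 on fibronectin, against 2684 and 3565. For fibronectin in IgG, 58 calls became 416 with the replicate block, 241 with every gene of at least 1 count, 141 by DESeq2, 11 with all 12 libraries in one fit and 5 to 17 by limma. For the interaction, 3 became 65 with every gene of at least 1 count.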

Other observations

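Mki67, the proliferation marker gene, lay outside the rule for named genes and was looked at after its values were seen. It was at 35.3, 40.5 and 31.6 FPKM in IgG and at 93.4, 114.4 and 82.2 in anti-ITGA5 on plain plates, and at 34.1, 43.0 and 29.7 against 98.5, 96.9 and 77.4 on fibronectin. The groups did not overlap on either coating. Replicate 3 was lowest in each of the 4 groups for Mki67, and it was so for Foxm1, E2f7 and Lin9 as well.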
